A study of Mus musculus with 18 samples.

Results

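The middle region of the cochlea was compared between 4-week-old Fst conditional knock-out (cKO) mice and control mice, which the labels give as WT and untreated. Members were chosen by column: the 3 count columns of the cKO middle against the 3 of the control middle, 6 of 18 libraries in all, with every gene that passed a filter on low counts, 17901 of 46583. Per the labels, the cochleae of each genotype were divided into base, middle and apex, the tissue of a region was pooled, and the RNA of each pool was split into 3 technical libraries, prepared with a TruSeq v2 kit and Ribo-Zero. Each group is therefore n = 1 pool. An SD or standard error below, and each p-value, measures the spread between libraries of 1 pool and not between animals. The labels name neither the Cre line that deletes Fst nor the cells it acts in, and they do not say how many mice entered a pool.

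The middle of the cochlea receives sound frequencies between those of the base (high) and the apex (low). Its organ of Corti holds inner and outer hair cells, which carry a hair bundle and are covered by the tectorial membrane, an extracellular sheet built of tectorins, otogelin and collagens. Spiral ganglion neurons carry the signal into the brainstem, their peripheral fibres wrapped by Schwann cells and the central part of the nerve by oligodendrocytes, and the whole lies in bone. Follistatin, the product of Fst, is a secreted protein that binds activins and some bone morphogenetic proteins (BMPs) and keeps them from their receptors.

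Library totals ran from 28895357 to 29030145 counts in the control middle and from 33573418 to 33732726 in the cKO middle. The 10 most abundant genes took 9.45% to 9.78% of a library. Levels are given in CPM, a gene's counts scaled to a common library size, on which the floor of 3 counts that a count of 0 allows is 0.0889 to 0.104. Floors and intervals cover counting error only. Changes are log2 differences, cKO minus control, with their standard errors. Calls needed both an absolute log2 change of 1 or more and, in edgeR's quasi-likelihood test, a Benjamini-Hochberg adjusted p (over all genes tested) below 0.05, and "rose" and "fell" refer to called genes. In whole tissue, fewer cells of a type and less RNA per cell cannot be told apart. Of the genes that define the labelled tissue, Coch, which encodes the cochlin of spiral ligament fibrocytes, averaged 19689 CPM in the control middle and 18498 in the cKO middle.

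Of the 17901 genes, 384 (2.15%) were called higher in the cKO middle and 103 (0.575%) lower, 487 (2.72%) in all. The change was unevenly spread over expression levels. Among the 2721 genes with a mean under 1 CPM over the 6 middle libraries, 201 rose and 60 fell. From 1 to 5 CPM, 96 of 2774 rose and 32 fell, and from 5 to 50 CPM 79 of 7490 rose and 9 fell. At 50 CPM or more, 8 of 4916 rose (0.163%) and 2 fell (0.0407%). The median absolute log2 change was 0.341 under 1 CPM and 0.0652 at 50 CPM or more. Of the called genes 394 were protein coding in GENCODE M21, 25 were lincRNAs, 20 antisense RNAs and 18 processed pseudogenes.

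**Figure D1:**
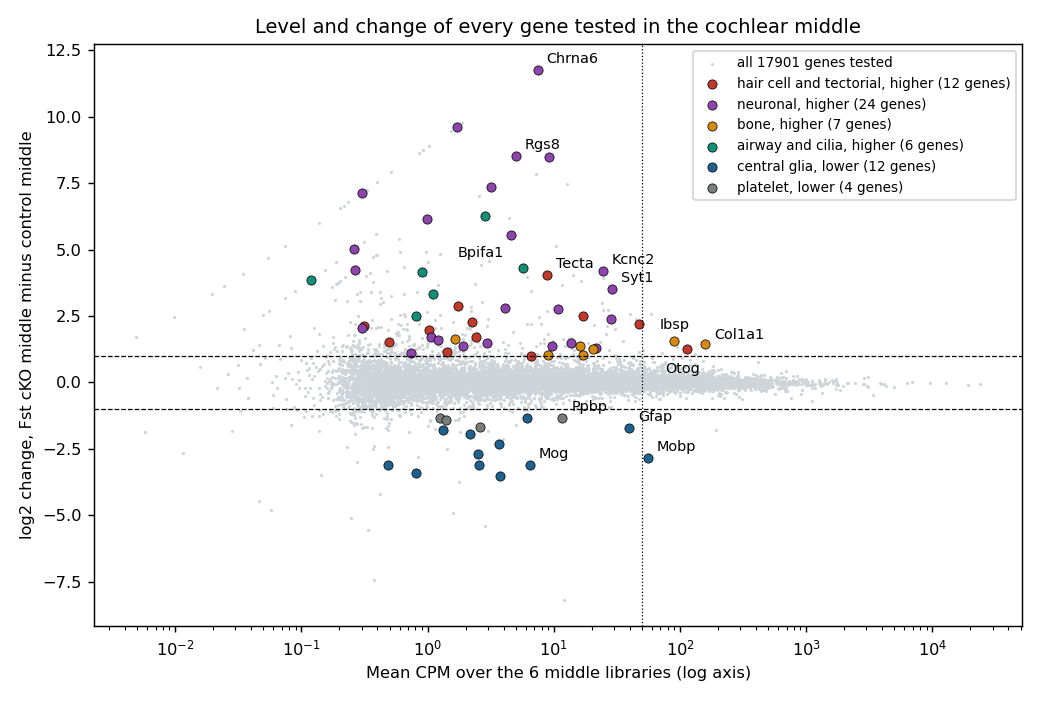
Each point is a gene tested in the middle. The horizontal axis is its mean CPM over the 6 middle libraries (log axis), and the vertical axis its log2 change, cKO minus control. Coloured points are called members of gene lists, dashed lines mark a change of 1 either way, and the dotted line marks 50 CPM. The 12 central glia genes lie below the cloud, the hair cell, neuronal, bone and airway genes above it, and 10 called genes lie right of the dotted line.

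**Figure D2:**
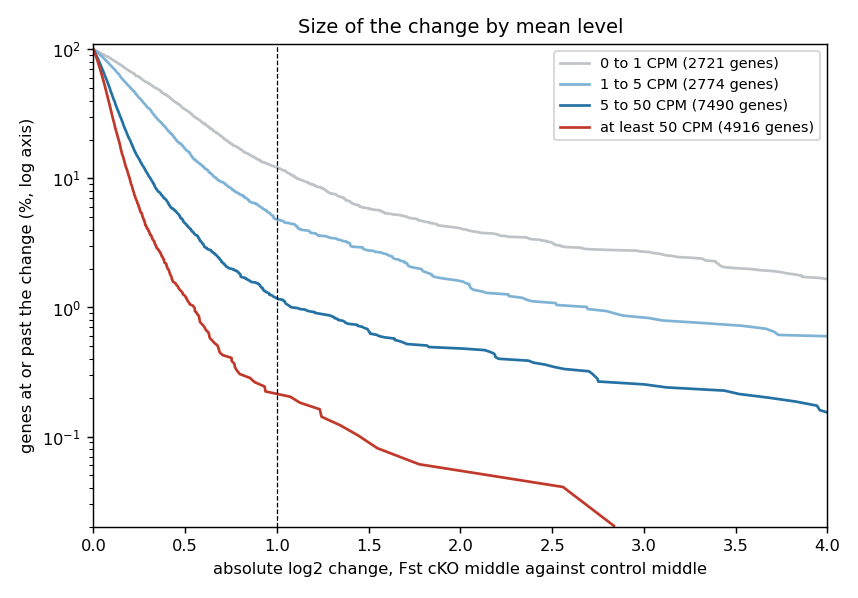
The share of genes (%, log axis) whose absolute log2 change between the middle pools reaches the value on the horizontal axis, for 4 classes of mean level. At a change of 1 (dashed line) the share falls with each step of level, and 10 of 4916 genes at 50 CPM or more are past it.

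Fst itself (chromosome 13, 114452290 to 114458951, minus strand, GRCm38) was the check on the labels. It stood at 6.85, 6.61 and 5.75 CPM in the control middle libraries and at 2.70, 2.86 and 3.36 in the cKO middle. The ranges did not overlap, and Fst fell by 1.10 on the log2 scale (SE 0.099, edgeR adjusted p = 2.38e-11). The call was lost when edgeR tested whether the change exceeded 1 (glmTreat, adjusted p = 1) and on log2(FPKM + 1), where the change was -0.74. In the other regions Fst averaged 2.22 CPM in the control base and 1.89 in the cKO base (-0.22, edgeR, adjusted p = 0.308), so in the base its level did not separate the genotypes, and it averaged 23.8 and 9.74 CPM in the apex, where it fell by 1.29 on the log2 scale. The libraries labelled cKO base are used below under that label. A count over the whole gene includes parts that a conditional allele may leave, so it is only a partial check. Of 36 genes of the follistatin, activin and BMP pathway, 1 rose, Gdf10, a BMP-family ligand, at 6.95, 7.57 and 7.34 CPM in the control and 15.5, 15.6 and 14.6 in the cKO (1.06 ± 0.07). Fst was the 1 that fell. The activin subunit genes Inhba (-0.41 ± 0.19) and Inhbb (-0.28 ± 0.21), and the receptor genes Acvr2a (0.06 ± 0.04) and Acvr2b (-0.12 ± 0.14), were not called. Nor were Id1 (0.18 ± 0.03), Id2 (-0.20 ± 0.03) and Id3 (0.05 ± 0.02), targets of BMP signalling. The pathway median was 0.05, beside -0.000576 over all genes tested. None of 19 hedgehog pathway genes was called, and their median was -0.03. On edgeR's adjusted p alone, without the fold threshold, 6 of them passed upward and 3 downward. Gli1, though not called, held 424 counts in the control pool and 935 in the cKO, while 12 of the 19 changes were negative.

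Some genes of the tectorial membrane and the hair bundle rose in the cKO middle, while most of those lists was not called. Of 12 genes of the tectorial and other acellular membranes, 3 rose and none fell, with a median of 0.34. Tecta, which encodes alpha-tectorin (chromosome 9, 42329619 to 42399929, minus strand), stood at 1.22, 1.07 and 0.727 CPM in the control libraries and at 16.1, 17.7 and 16.3 in the cKO. All cKO libraries lay more than 10 CPM above all controls, a log2 change of 4.05 ± 0.11 (edgeR, adjusted p = 1.16e-25). Tectb, the gene of beta-tectorin (chromosome 19, 55180733 to 55196313), held 28, 21 and 18 counts in the control and 114, 133 and 132 in the cKO (2.26 ± 0.16). Otog, which encodes otogelin, stood at 66.8, 68.4 and 66.5 CPM against 158, 161 and 158 (1.24 ± 0.02). The collagens that make up most of the sheet moved less: Col11a1 changed by 0.51 ± 0.02, Col2a1 by 0.28 ± 0.02 and Col9a3 by 0.17 ± 0.02. Ceacam16, a tectorial membrane glycoprotein gene, changed by 0.09 ± 0.01, and Emilin2, the 1 gene of the list with a negative change, by -0.41 ± 0.03.

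The upstream sequence of both tectorin genes is shown because they rose together, with that of Mobp, a myelin gene that had the lowest log2 change among genes at 50 CPM or more, for contrast. Each window covers 250 to 51 bases before the start in RefSeq on GRCm38.p6, is 200 bases long and is written 5′ to 3′ on the strand of its gene. Capitals mark ACAAAG on either strand (CTTTGT on the other), the core letters bound by Sox factors. The Tecta window is chr9:42399998-42400197 (minus strand), the Tectb window chr19:55180476-55180675 (plus strand) and the Mobp window chr9:120149492-120149691 (plus strand).
Tecta: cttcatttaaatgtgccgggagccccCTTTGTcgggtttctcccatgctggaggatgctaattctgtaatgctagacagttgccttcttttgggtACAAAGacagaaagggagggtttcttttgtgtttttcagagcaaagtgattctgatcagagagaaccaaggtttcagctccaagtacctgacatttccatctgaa
Tectb: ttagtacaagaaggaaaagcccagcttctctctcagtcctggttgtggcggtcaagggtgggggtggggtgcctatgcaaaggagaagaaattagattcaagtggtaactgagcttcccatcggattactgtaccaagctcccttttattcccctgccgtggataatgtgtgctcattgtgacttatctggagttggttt
Mobp: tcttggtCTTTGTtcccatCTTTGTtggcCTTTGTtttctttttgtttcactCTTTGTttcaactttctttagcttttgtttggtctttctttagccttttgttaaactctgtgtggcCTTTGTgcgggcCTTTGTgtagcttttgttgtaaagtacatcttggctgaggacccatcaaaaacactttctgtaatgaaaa
The Tecta window holds 2 matches, the Tectb window 0 and the Mobp window 6. Of 32851 RefSeq windows of the same length, 13.6% hold at least 1 match, 1.19% at least 2, and 1 window, that of Mobp, holds 6. None of the 3 windows holds ATTGAT, the letters searched for Onecut factors (5.8% of windows, either strand), or the E-box CAGCTG (10.3%). A match of letters is a description of the sequence and not a measured site. Promoters of Ptprq, Chrna6, Chrnb3 and Fst were not analysed here.

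Among 30 genes of the hair bundle and its transduction machinery, 6 rose and none fell, with a median of 0.20. Ptprq, which encodes a phosphatase at the base of the bundle, stood at 5.67, 4.599 and 5.12 CPM in the control and at 28.5, 28.4 and 30.6 in the cKO (2.51 ± 0.06, edgeR, adjusted p = 1.26e-27). Xirp2, an actin-binding protein gene of the bundle, held 11, 14 and 11 counts against 102, 112 and 101 (2.89 ± 0.21). Myo3b, a myosin of the bundle tips, held 28, 34 and 36 counts against 110, 144 and 125 (1.72 ± 0.18). The other calls rested on fewer counts. Cib3, which encodes a partner of the transduction channel, held 11, 14 and 11 against 57, 63 and 48. Grxcr1 held 6, 8 and 8 against 22, 33 and 19. The tip link genes Cdh23 (0.00 ± 0.05) and Pcdh15 (0.14 ± 0.06) were not called. The channel gene Tmc1 (0.80 ± 0.07), Loxhd1 (0.95 ± 0.08) and Myo7a (0.13 ± 0.03) missed the fold threshold.

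Hair cell identity genes gave a mixed picture. Of 10 hair cell transcription factors tested, 2 rose: Gfi1 from 4.45, 5.12 and 3.64 CPM to 8.51, 9.86 and 8.17 (1.01 ± 0.11), and Lhx3 from 26, 24 and 27 counts to 54, 78 and 66 (1.13 ± 0.21). Gfi1 dropped to 0.89 without control replicate 3 and to 0.92 without cKO replicate 2, and Lhx3 to 0.99 without cKO replicate 2, which ended those calls. Pou4f3, the factor on which hair cell survival depends, changed by 0.37 ± 0.08. Of 11 outer hair cell genes 1 was called higher. Slc26a5, the gene of the outer hair cell motor prestin, was at 5.70, 5.71 and 6.51 CPM against 5.60, 5.78 and 5.81, so the ranges overlapped. Ocm, which encodes oncomodulin, likewise overlapped, at 47.7, 48.7 and 47.4 against 47.6, 49.0 and 46.0. None of 9 inner hair cell genes was called: Otof changed by 0.34 ± 0.03 and Slc17a8 by 0.49 ± 0.06, both with an adjusted p under 0.05. None of 20 supporting cell genes was called. Their median was 0.07.

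Markers of the vestibular organs, which also have hair cells and tectorin-rich membranes, moved beside these genes. Of 11 tested, 3 rose: Otol1, an otoconial membrane collagen, from 14, 15 and 22 counts to 171, 157 and 162 (3.03 ± 0.19), Skor1 (1.71 ± 0.29) and Tnc (1.18 ± 0.08). The median of the list was 0.47, with 9 positive and 2 negative changes. On edgeR's adjusted p alone, 7 passed upward and 1 downward. The summed level of the list, most of it Spp1, ran from 6370 to 6444 CPM in the control libraries and from 6442 to 6479 in the cKO. Otop1, an otoconia gene, stood at 20.9, 21.1 and 21.2 CPM against 22.7, 24.6 and 23.8, and Oc90, the main otoconial protein gene, held 12, 8 and 7 counts against 13, 18 and 13. No tested marker was at 0 in either pool, Neurod6 was not tested, on 2 counts in the control pool and 0 in the cKO, and the part of such tissue in the hair cell and tectorial changes was not tested.

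**Figure D3:**
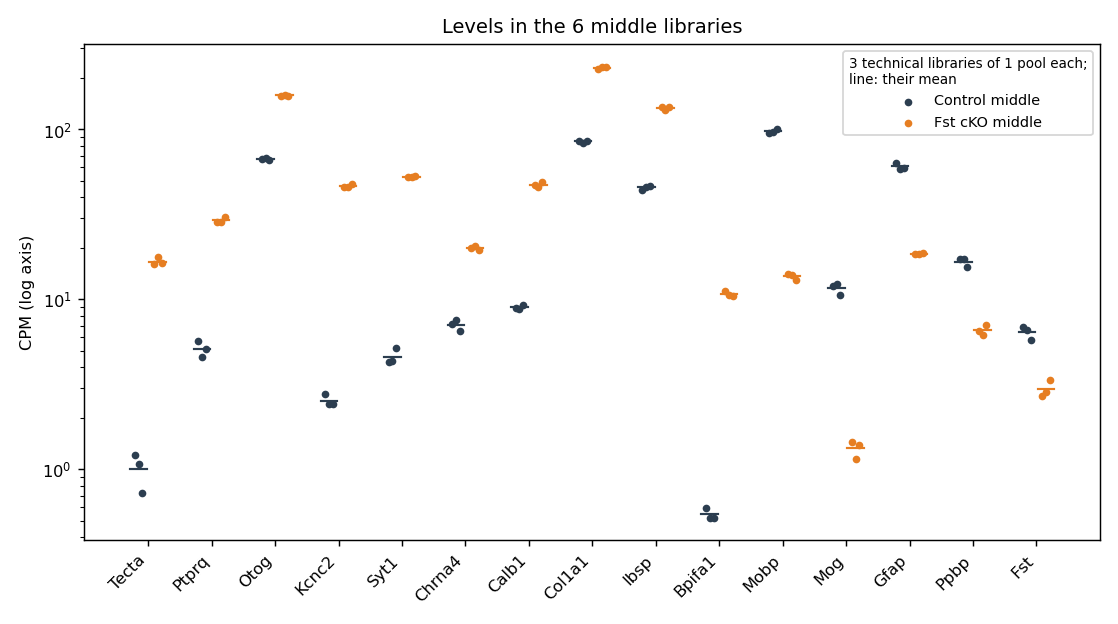
CPM (log axis) of 15 genes in the 6 middle libraries. Dark points are the 3 control libraries, orange points the 3 cKO libraries, and a line is the mean of the 3. For each of these genes the ranges of the pools do not overlap: Tecta to Bpifa1 are higher in the cKO, Mobp to Fst lower.

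Of 141 tested members of the neuronal lists, the cerebellar list included, 24 rose, several of them genes that the control middle hardly expressed. The 10 highest log2 changes by the naming rule also held Gm16551, Rps13-ps1 and Gm1113, the last with no count in the control middle and 77, 58 and 73 in the cKO, at least 59.6-fold higher. Chrna6 and Chrnb3, which encode nicotinic acetylcholine receptor subunits and lie 3481 bases apart on chromosome 8 (27368711 to 27399730 on the plus strand for Chrnb3, 27403212 to 27413944 on the minus strand for Chrna6), rose together. Chrna6 had no count in any control middle library and 501, 515 and 494 counts in the cKO, at least 433-fold higher against a floor of 3 counts over the group. Chrnb3 stood at 0.0695, 0.0346 and 0.0346 CPM against 17.1, 18.5 and 19.2. Of 10 nicotinic subunit genes tested, 5 rose and none fell, with a median of 1.02. The other 3 were Chrna4, at 7.19, 7.54 and 6.54 CPM against 20.1, 20.6 and 19.5 (1.5004 ± 0.06), Chrna5 (1.71 ± 0.24) and Chrna3 (2.05 ± 0.42), which held 3, 2 and 5 counts against 14, 17 and 19.

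Onecut1, a homeodomain transcription factor gene of neurons, and Gm16551, a transcript 1786 bases upstream of it on the same strand of chromosome 9, had no count in the control middle. Onecut1 held 121, 106 and 122 counts in the cKO, at least 100.1-fold higher, and Gm16551 held 123, 132 and 123, at least 108-fold higher. Both overlap the annotated Gm20649 on that strand, so reads may be shared. Of 24 neuronal transcription factors tested, 6 rose and 1 fell. Tlx3, a determinant of excitatory sensory neurons, held 2 counts in the control pool and 200 in the cKO, a ratio of 86.0 (exact 95% interval 23.5 to 715). Skor2 held 0 and 61 counts, at least 17.5-fold, and Onecut3 2 and 52, a ratio of 22.4 (5.89 to 190). Zic1, at 5.73, 5.19 and 5.19 CPM against 13.8, 14.7 and 13.7 (1.39 ± 0.07), and Zic4 (1.38 ± 0.21) also rose. Lhx1 fell from 26, 32 and 39 counts to 9, 10 and 12 (-1.86 ± 0.27). Isl1 (-0.38 ± 0.03) and Pou4f1 (0.86 ± 0.07), which sensory ganglion neurons share, were not called.

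Of 12 neuropeptide genes tested, 5 rose and 1 fell. The summed level of the list went the other way, from 427.9 to 436.5 CPM in the control libraries against 358.3 to 371 in the cKO. Tac1, the gene of substance P, held 3 counts in the control pool and 648 in the cKO, a ratio of 186 (63.3 to 903). Vgf, a secreted neuronal protein gene, stood at 0.278, 0.207 and 0.0692 CPM against 8.77, 8.59 and 9.38 (5.56 ± 0.20). Penk, which encodes proenkephalin, stood at 1.25, 0.865 and 0.969 against 7.05, 7.17 and 7.29 (2.80 ± 0.15). Vip held 1 count against 52, a ratio of 44.7 (7.68 to 1800.4), and Scg2 rose by 1.49 ± 0.15. Cck fell from 15, 28 and 12 counts to 2, 3 and 6 (-2.51 ± 0.47).

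Among channel and synaptic genes the change was carried by a few. Kcnc2, a fast-spiking potassium channel gene, stood at 2.78, 2.42 and 2.42 CPM in the control and 45.6, 45.9 and 48.0 in the cKO (4.19 ± 0.07, edgeR, adjusted p = 6.4e-32). Of 22 channel genes tested, 3 rose, the others being Kcnd3 (2.75 ± 0.08) and Kcnh7 (1.31 ± 0.05). Kcna1 (-0.02 ± 0.02) and Kcna2 (0.09 ± 0.01), channels of the myelinated axon, were level. Kcnq5, on no list, rose from 0.730, 0.588 and 0.415 CPM to 21.9, 19.5 and 19.4 (5.12 ± 0.14). Of 24 pan-neuronal genes, 1 rose: Syt1, the calcium sensor of transmitter release, at 4.31, 4.32 and 5.16 CPM against 52.5, 52.2 and 53.5 (3.52 ± 0.05). The median of the list was 0.14, and Syt2, the synaptotagmin with the higher counts in this tissue, changed by -0.10 ± 0.02. Other large gains by the naming rule were Hs3st2 (7.86 ± 0.25), Fam19a2 (7.46 ± 0.17) and Rgs8, which held 2 counts against 1019, a ratio of 438 (121 to 3624). Ddc, the 1 gene called among 11 of transmitter identity, rose by 1.59 ± 0.24, while the vesicular glutamate transporter gene Slc17a6 changed by 0.66 ± 0.03 and Slc17a7 by -0.55 ± 0.02.

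The genes that mark spiral ganglion neurons in bulk did not follow those gains. Nefl stood at 905.6, 904.6 and 907.1 CPM in the control and 944.0, 946.4 and 933.5 in the cKO (0.06 ± 0.01), and Nefm (0.11 ± 0.01), Nefh (-0.09 ± 0.01), Snap25 (0.04 ± 0.005) and Pvalb (0.04 ± 0.02) were as close. Of 26 genes on the list, 1 rose and 2 fell. Calb1, a calcium buffer gene, stood at 8.90, 8.82 and 9.24 CPM against 46.9, 46.2 and 49.1 (2.40 ± 0.05). Th held 80, 80 and 85 counts against 28, 27 and 24 (-1.86 ± 0.19), and Ttn fell by 1.12 on the log2 scale (SE 0.06). The list's summed level was 7959 to 7988 CPM in the control and 7329 to 7352 in the cKO. Calb2, the calretinin gene of inner hair cells and a class of spiral ganglion neurons, accounted for most of that difference, at 1381.1, 1377.1 and 1367.9 CPM against 856.9, 849.4 and 853.7 (-0.69 ± 0.01).

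Cerebellar markers, which are part of the neuronal lists above, were also read alone. Of 14, 4 rose in the middle: Rgs8, Skor2, Calb1 and Cdh15 (1.09 ± 0.29), the last only 0.82 without control replicate 1. The summed level of the list was 770.1 to 774.9 CPM in the control and 717.1 to 722.9 in the cKO. Gabra6 and Pcp2, which define granule and Purkinje cells, stayed near 0: Gabra6 held 1, 0 and 1 counts in the control and 3, 0 and 1 in the cKO. Pcp2 held 11 counts in each pool. Slc32a1, the vesicular GABA transporter gene, held 2 counts in each pool, and Slc6a5, a glycine transporter gene, held 3 and 10. In the cKO base Gabra6 averaged 22.2 CPM and Slc32a1 5.30.

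Bone genes had changes of 1 sign. Of 18 osteoblast and osteocyte genes, 7 rose and none fell, all 18 had a positive change, and the median was 0.93. Col1a1, the type I collagen gene (chromosome 11, 94936224 to 94953042), stood at 85.4, 83.8 and 85.8 CPM in the control and 226, 235 and 233 in the cKO (1.44 ± 0.02, edgeR, adjusted p = 1.42e-32). Ibsp, bone sialoprotein, stood at 44.0, 46.2 and 46.7 against 135, 130 and 135 (1.55 ± 0.03). Bglap, osteocalcin, stood at 8.52, 9.65 and 8.93 against 23.1, 23.9 and 23.1 (1.37 ± 0.07), and its neighbour copy Bglap2 changed by 1.04 ± 0.06, so reads between these copies may be split. Sost, made by osteocytes, stood at 12.5, 11.7 and 11.9 against 28.6, 28.1 and 30.2 (1.26 ± 0.04), and Ifitm5, a membrane protein gene of osteoblasts, rose by 1.63 ± 0.22. Just under the threshold were the osteoblast factor Sp7 (0.94 ± 0.06), Phex (0.93 ± 0.04) and Mepe (0.93 ± 0.04). The summed level was 998.7 to 1001 CPM in the control and 1623 to 1646 in the cKO. None of 6 osteoclast genes tested was called, with 2 past edgeR's adjusted p in each direction. Ctsk, their collagen protease, changed by 0.16 ± 0.04 and Tnfrsf11a, the RANK receptor gene, by 0.50 ± 0.12, while Acp5, the gene of their acid phosphatase, changed by -0.83 ± 0.10 and Mmp9 by -0.60 ± 0.09.

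Of 15 airway and motile cilia markers tested, of tissue that lines the middle ear, 6 rose and none fell, with a median of 0.47. Foxj1, the master factor of motile cilia, averaged 14.8 CPM in the control and 14.4 in the cKO (-0.05 ± 0.07). Bpifa1, a secreted airway protein gene, stood at 0.591, 0.519 and 0.519 CPM against 11.204, 10.7 and 10.5 (4.30 ± 0.12), and Ccdc108, a cilia gene, held 3, 1 and 2 counts against 195, 182 and 200. The list summed to 27.9 to 29.3 CPM in the control and 50.7 to 53.0 in the cKO, with Bpifb1 at 3, 2 and 0 counts against 3, 3 and 1. Of 12 melanocyte and stria intermediate cell genes 2 rose, Trpm1 (1.64 ± 0.07) and Tyrp1 (1.44 ± 0.37), while Dct (0.02 ± 0.01) and Kcnj10 (0.06 ± 0.01) were level. All 12 changes were positive, with a median of 0.24, and 8 passed edgeR's adjusted p. Of 10 meningeal genes 1 rose, Slc47a1 (1.69 ± 0.07), and of 8 cartilage genes 1, Prg4, the lubricin gene of joint and mucosal surfaces (1.48 ± 0.09). The meningeal median was 0.52, with 8 past edgeR's adjusted p upward and 1 downward, and the cartilage median was 0.15, with 4 and 3. Myh1 and Myh4 were the calls among 11 muscle genes, on 4 and 5 counts in the control pool. None of 12 fibrocyte, 11 marginal cell, 12 macrophage or 12 endothelial genes was called. The part of these tissues in the other gains was not tested.

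Of the 103 genes called lower, 12 were on the lists of central glia. Of 21 oligodendrocyte genes tested, 10 fell and none rose, with a median of -0.92. Mobp, a myelin protein gene of oligodendrocytes (chromosome 9, 120149707 to 120181484), stood at 95.8, 96.4 and 101 CPM in the control and 14.2, 13.8 and 12.98 in the cKO (-2.84 ± 0.04, edgeR, adjusted p = 4.44e-36). Mog, a surface protein of central myelin, stood at 11.9, 12.3 and 10.6 against 1.45, 1.15 and 1.39 (-3.12 ± 0.12). The lineage factors fell as far: Olig1 held 131, 143 and 124 counts against 18, 21 and 15 (-3.10 ± 0.19), and Olig2 24, 30 and 22 against 5, 2 and 3 (-3.10 ± 0.40). Ermn (-3.54 ± 0.19), Nkx6-2 (-3.39 ± 0.41), Klk6 (-2.69 ± 0.20), Hapln2 (-2.34 ± 0.14) and Myrf (-1.33 ± 0.10) fell too. Of 12 astrocyte genes 2 fell: Gfap, an intermediate filament gene, from 63.8, 58.8 and 59.7 CPM to 18.5, 18.4 and 18.8 (-1.71 ± 0.04), and Ntsr2 (-1.79 ± 0.22). Aqp4 changed by -0.91 ± 0.04. The astrocyte median was only -0.18, with 9 negative and 3 positive changes. On edgeR's adjusted p alone, 8 astrocyte genes passed downward and 2 upward.

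Myelin genes that oligodendrocytes share with Schwann cells moved less. Mbp stood at 1504.9, 1528.9 and 1509.9 CPM against 1144.2, 1142.4 and 1149.6 (-0.40 ± 0.0045), Mag changed by -0.62 ± 0.04 and Cnp by -0.17 ± 0.01. Of 17 Schwann cell genes none fell and 1 rose, Pmp2 (1.18 ± 0.16). None of 7 oligodendrocyte precursor genes was called, and Pdgfra, which fibroblasts also express, changed by 0.04 ± 0.02. The summed level of the oligodendrocyte list was 3855 to 3879 CPM in the control and 2990 to 3014 in the cKO.

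Platelet and megakaryocyte genes fell beside the glial ones. Of 8, 4 fell and all 8 had a negative change: Ppbp, a platelet chemokine gene, went from 17.2, 17.2 and 15.6 CPM to 6.55, 6.20 and 7.11 (-1.33 ± 0.07), with Tubb1 (-1.67 ± 0.17), Treml1 (-1.40 ± 0.21) and Gp9 (-1.35 ± 0.25). No gene was called among 11 of red blood cells (median -0.16), 15 of neutrophils (-0.42), 10 of B cells (-0.40) or 15 of proliferation (-0.28). The largest falls by the naming rule outside the lists were Gm14150 (-5.39 ± 0.24), Sprr1a, a cornified envelope gene (112, 75 and 78 counts against 4, 2 and 4), and Bpifb3 (-2.52 ± 0.22). Gm20634, which overlaps histone genes on its strand, held 139, 11 and 138 counts in the control, so 1 control library went with the cKO values of 4, 14 and 7. A row with the symbol Atn1, named Gm45234 in M21, held 809, 486 and 789 counts against 0, 8 and 0. It overlaps the Atn1 gene, and both rows together came to 232 to 237.8 CPM in the control and 226 to 227.6 in the cKO.

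The other regions, made from other pools, show which of these changes were found together elsewhere. In the base 450 genes (2.51%) were called higher in the cKO and 92 (0.514%) lower, and in the apex 266 (1.49%) and 99 (0.553%). Of the genes higher in the middle, 75 were also called higher in the base (19.5% of the middle list, 16.7% of the base list) and 57 in the apex (14.8% and 21.4%). Of the genes lower in the middle, 12 were lower in the base (11.7% and 13%) and 16 in the apex (15.5% and 16.2%), while 16 and 15 were called higher there. The 6 groups differed in this.

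Of the 12 called hair cell and tectorial genes, 1 was also higher in the base (Cib3) and none in the apex, where Tectb was called lower at 27.3 CPM in the control and 9.04 in the cKO. Their median change was 2.05 in the middle, 0.23 in the base and -0.11 in the apex. In the control cochlea 10 of the 12 were highest in the apex. They were chosen by a rise from the control middle, so a lower level there is partly fixed by that choice. Uncalled list members also varied: Ocm held 3279, 4150 and 13516 counts in control base, middle and apex, and Whrn 7750, 4976 and 3611. Otog averaged 84.9, 67.2 and 177.0 CPM in control base, middle and apex and 159.1 in the cKO middle. Tecta, at 16.7 CPM, was higher in the cKO middle than in any other pool. So were 245 of the 384 genes called higher in the middle (63.8%), beside 13.8% of all genes tested. The 384 were chosen by a rise in the cKO middle, so that share is partly fixed by the choice.

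The 24 called neuronal genes split. In the base 11 were also higher, among them Syt1 (3.63 CPM in the control base, 23.1 in the cKO base), Calb1 (6.76 and 25.3), Rgs8 (0.174 and 34.5), Kcnd3, Tlx3 and Vgf. Chrnb3, also among these 11, was called higher near the floor, on 0 counts in the control base and 4 in the cKO base. The other 13 were not, among them Chrna6, Onecut1, Tac1, Penk and Kcnc2, which averaged 2.62 CPM in the control base and 2.57 in the cKO base. None was called higher in the apex and 2 were lower there, Zic1 and Zic4. Beside the shared gains, 13 of the 14 cerebellar markers were called higher in the base, with a median of 2.79 there and a summed level of 738.9 to 745.2 CPM in the control base and 1167 to 1183 in the cKO base. Rgs8, Calb1, Skor2 and Cdh15 are cerebellar markers among the 11, and Rgs8 and Cdh15 were counted as neuronal through the cerebellar list alone. The shared gains therefore partly overlap with that list, and the part of cerebellar tissue in the base gains was not tested.

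Among the control regions all 7 called bone genes were highest in the base. These too were chosen by a rise from the control middle, so a lower level there is partly fixed. Col1a1 stood at 526.0 CPM in the control base, 85.0 in the control middle and 42.7 in the control apex, and at 184.1, 231.3 and 77.2 in the cKO. In the apex 3 of the 7 were also called higher and the median change was 0.95. In the base none was, 1 was lower (Col1a1), and the median was -0.30. The 6 airway and cilia genes were all called higher in the apex, with a median of 4.89 there, and 1 in the base.

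The 12 central glia genes were all higher in the middle than in the base and apex of the control cochlea. They were chosen by a fall from the control middle, so a high level there is partly fixed by that choice. Over the 6 pools 11 of the 12 were highest in the control middle, as were 66 of all 103 genes called lower (64.1%), beside 10.3% of all genes tested. Of the 12, 6 were also called lower in the apex. In the base none was lower and 3 were higher (Olig1, Olig2 and Ntsr2). Mobp averaged 21.9, 97.7 and 3.91 CPM in control base, middle and apex and 33.3, 13.7 and 0.294 in the cKO, so the control middle was the highest pool. The 4 platelet genes, lower in the middle, were all called higher in the apex, where Ppbp averaged 0.192 CPM in the control and 6.29 in the cKO. Side by side, then, airway gains and part of the bone gains and glial losses were also called in the apex, and part of the neuronal gains in the base.

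**Figure D4:**
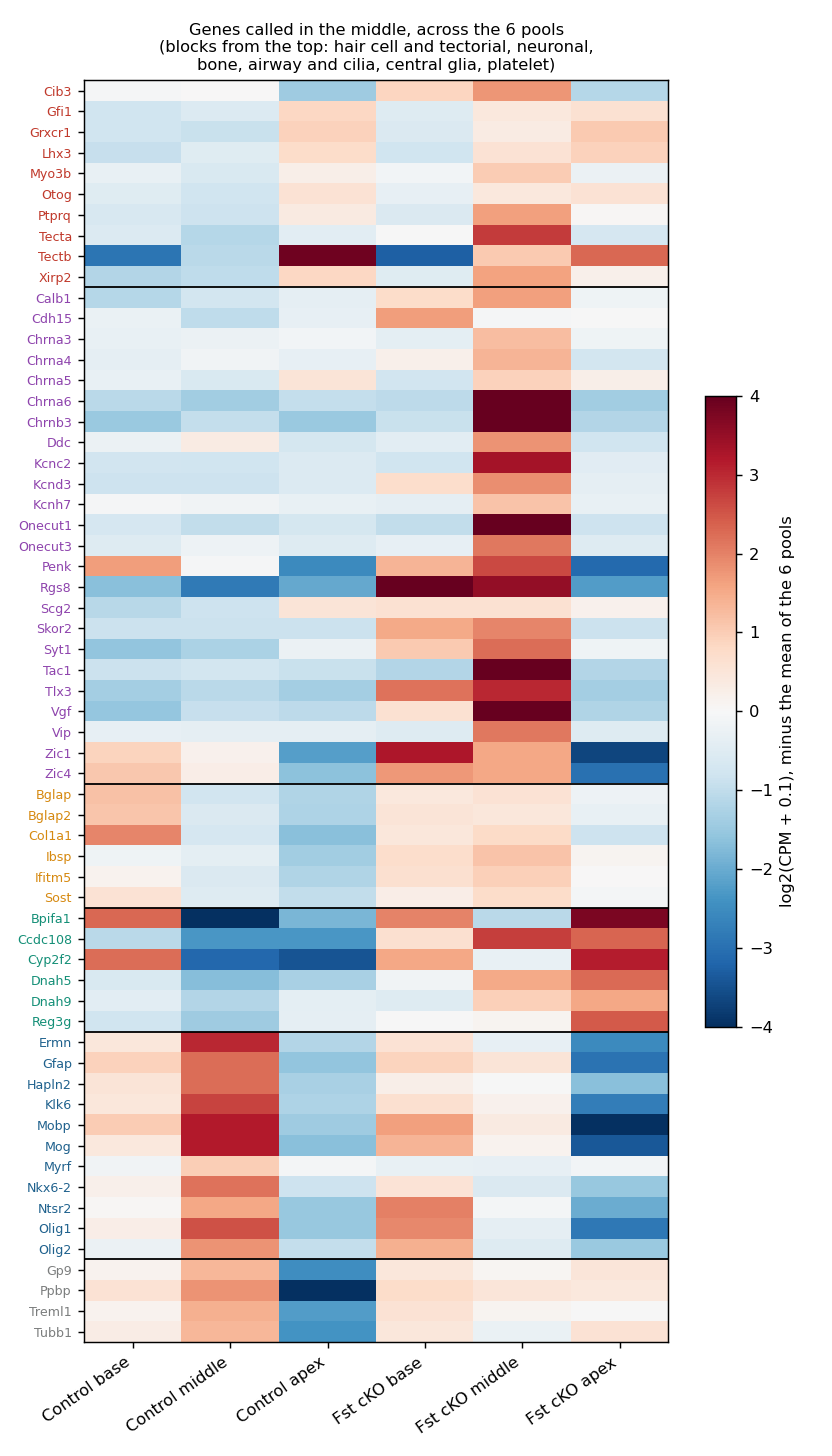
Called members of the gene groups (rows, 61 of 65) in the 6 pools (columns). Colour is log2(CPM + 0.1) minus the mean of that gene over the pools, red above and blue below. The hair cell block is red in the cKO middle, and the central glia block is red in the control middle. The genes were chosen by their change in the middle, so these colours are partly fixed by that choice.

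Whether the effect in the middle differed from the mean of the base and apex effects was tested for the 17516 genes with at least 10 counts in each pool. It was called for 540 (3.08%), 268 (1.53%) upward and 272 (1.55%) downward. Among hair bundle genes it was called for 4 of 27: Xirp2 (2.81), Ptprq (2.64), Myo3b (1.88) and Grxcr1 (1.32). Tecta (3.89, edgeR, adjusted p = 3.89e-19) and Otog (1.17) were called among 11 tectorial genes. Of 18 bone genes 2 were, Col1a1 (1.77) and Bglap (1.23). Of 15 oligodendrocyte genes it was called for 5 and of 7 nicotinic genes for 2. The lists with the highest shares were of blood and dividing cells: 14 of 15 neutrophil genes, 10 of 11 of red blood cells, 11 of 15 of proliferation and 4 of 6 of platelets. Then came 5 of 10 meningeal genes, 4 of 8 of transmitter identity and 5 of 11 of cerebellum. It was also called for 4 of 14 neuronal transcription factors and 4 of 22 channel genes. Neutrophil genes had medians of -0.42, 1.67 and 0.83 in middle, base and apex, and red blood cell genes -0.16, 1.56 and 1.35. On the spiral ganglion list it was called for 3 of 26 genes, and for others the difference was smaller. Nefl changed by 0.06, -0.71 and -0.36 in middle, base and apex, a difference of 0.59 (adjusted p = 7.17e-35), which is under the fold threshold. The list's median was -0.07 in the middle, -0.54 in the base and -0.33 in the apex. For the pan-neuronal list these medians were 0.14, -0.34 and -0.29.

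**Figure D5:**
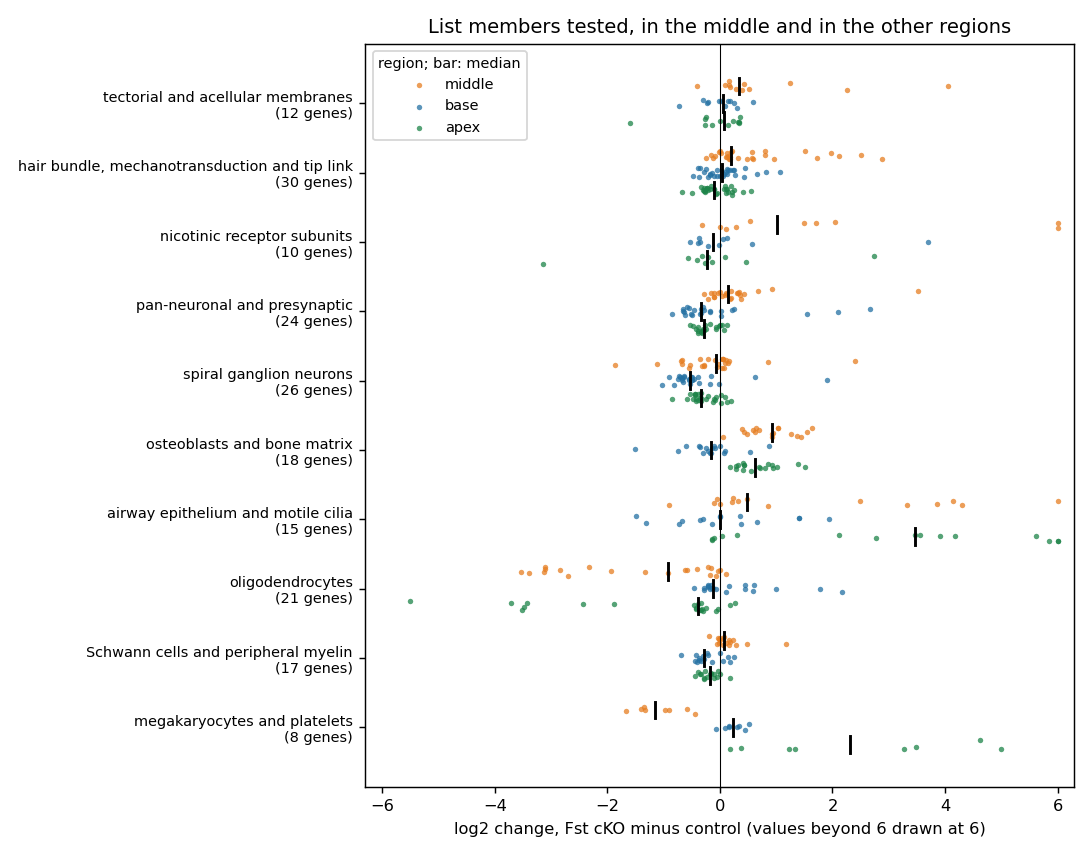
Log2 change, cKO minus control, of the tested members of 10 lists (points) in the middle (orange), base (blue) and apex (green), with black bars at the medians. Bone genes lie right of 0 in the middle and apex (medians 0.93 and 0.62) and around it in the base (-0.16), and platelet genes lie left of 0 in the middle (-1.15) and right of it in the apex (2.31).

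Few well-expressed genes changed by much. Of the 4916 genes at 50 CPM or more, 1221 (24.8%) passed the adjusted p alone upward and 1493 (30.4%) downward, beside 17.9% and 17.7% of all genes tested. These shares rest on the small spread between technical libraries. An absolute change of 0.25 was reached by 291 (5.92%) and of 0.5 by 59 (1.2%), 45 upward and 14 downward. The 8 that rose were Pcp4, a calmodulin-binding neuronal peptide gene (17.1, 15.6 and 18.3 CPM against 104, 97.8 and 99.5, 2.56 ± 0.04), Ibsp, Col1a1, Rph3a, a synaptic vesicle protein gene (54.2, 54.0 and 53.5 against 137 in each, 1.35 ± 0.02), Otog, Adam11 (1.23 ± 0.03), Fkbp5, a glucocorticoid-induced gene (1.12 ± 0.03), and Fgf12, a sodium channel modulator (1.07 ± 0.02). Next came Dbp, a clock output gene (0.94 ± 0.03), and Sncg (0.93 ± 0.03).

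Fgf12 and Sncg went the other way in the other regions: Fgf12 changed by -0.70 in the base and -0.61 in the apex, and Sncg by -0.56 and -0.53. Fkbp5 (0.83 and 1.05) and Dbp (0.62 and 0.73) were higher in each region. The 2 well-expressed genes that fell were Mobp and Xist, the RNA that silences an X chromosome in females (294, 301 and 299 CPM against 87.4, 86.7 and 87.2). Xist was also lower in base (-2.37) and apex (-2.16), and the Y-linked Ddx3y changed by 0.61, 0.68 and 0.86 in middle, base and apex. The labels give no sex for the pools, and the part of this difference in other changes was not tested.

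The next falls among well-expressed genes were shared with the other regions. Calb2 changed by -0.69, -0.75 and -0.52 in middle, base and apex, Sema3e by -0.63, -0.72 and -0.41, Fgf10 by -0.63, -0.80 and -0.38, Spock3 by -0.58, -0.66 and -0.43, and Ddn by -0.58, -0.70 and -0.59. Cd24a (-0.64, -0.39 and -0.24) and Aldh1a3 (-0.58, -0.60 and -0.34) had the same sign throughout. All missed the fold threshold. Called in the same direction in all 3 regions were 16 genes upward, led by Rps13-ps1, a ribosomal pseudogene with no count in the control middle and 97, 116 and 99 in the cKO (at least 89.5-fold higher), and 8 downward, Gm14150 and Xist among them.

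Some of the most abundant genes, chosen after their values were seen, moved little. Ptgds averaged 24516 CPM in the control and 23319 in the cKO, mt-Co1 13066 and 12774, and Apod 9605.1 and 9476.3. Slc4a11, a fibrocyte transporter gene, moved more, at 3920.6 and 2797.4 CPM (-0.49), with changes of 0.16 in the base and 0.69 in the apex.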

How the data were processed

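Expected counts per gene and FPKM values per library were deposited by the authors in 1 table, with their mean FPKM per group, which was not used. The submitters' processing notes name STAR 2.5.2b, Cuffdiff 2.2.1 and GRCm38/mm10 without roles, and the counting step is not given in the sources used here. Between 89.2% and 89.9% of the estimated counts deposited in a library were whole (tolerance 1e-06), and all were rounded. Genes were kept by Ensembl identifier, and positions came from GENCODE M21.

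All 18 libraries in 6 groups were fitted with edgeR 4.0.16 (R 4.3.3; filterByExpr, TMM factors 0.977 to 1.03, quasi-likelihood test, two-sided, 12 residual degrees of freedom), with Benjamini-Hochberg adjustment. The common coefficient of variation was 0.00988 between libraries, which is technical. Totals ran from 24446760 to 33732726 counts over the series. Alternatives used DESeq2 1.42.0 and limma 3.58.1 on log2(FPKM + 1) and log2(FPKM + 0.1), values derived from the deposited FPKM. The script was tested on simulated data.

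Named genes are the 10 highest and 10 lowest called with a mean of at least 1 CPM, the 10 highest and lowest past the adjusted p at 50 CPM or more, up to 6 called members and the first 2 members of each of 41 lists, and Fst. A further 10 highest and lowest called at 5 to 50 CPM, and single values of other list members, were added after values were seen. The rule, members and lists were chosen with earlier results of these data known. Of 623 listed genes 617 were found. Of 176 named genes 53 overlap a gene on the other strand and 31 one on their own, and strand use in counting is not given. Results for some genes are not reported here.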

Additional observations from a re-analysis of the deposited data

Results flagged for a closer look

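The effect of the genotype in the middle was set against the mean of its effects in the base and apex for the 36 genes named by rank that had at least 10 counts in each of the 6 pools. These genes were named by the size of their middle change, so a difference from the other regions is partly fixed by that choice and the values are a description. The difference passed the adjusted p (edgeR, 1 pool per group) and a log2 difference of 1 for 17 of them, and for 540 of all 17516 genes tested (3.08%). The middle effect lay above the others for Kcnq5 by 4.89 (adjusted p = 2.96e-15), Kcnc2 by 4.15 (5.56e-24), Tecta by 3.89, RP23-372N19.2 by 3.58, Pcp4 by 2.26, Col1a1 by 1.77, Fgf12 by 1.73, Bpifa1 by 1.65, Sncg by 1.48, Rph3a by 1.41 and Otog by 1.17. Col1a1 was lower in the cKO base (-1.52) and Bpifa1 was higher by 5.61 in the apex, so a mean of the other regions joins unlike values there. The middle effect lay below the others for Sprr1a (-6.09), Ppbp (-3.91), Bpifb3 (-3.21), Mlc1 (-1.91), Mobp (-1.28) and Myrf (-1.24). Ppbp changed by 4.999 in the apex and Mobp by -3.72, so Mobp fell further in the apex than in the middle.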

How the results depend on the processing

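The 487 calls (384 higher, 103 lower) numbered 487 with RLE size factors, 492 with library totals, 421 with DESeq2, 576 without the filter and 450 on the 6 middle libraries alone. Fewer were called at a mean of at least 5 CPM (98, 87 higher and 11 lower), with glmTreat (228, 192 and 36), with limma on log2(FPKM + 1) (111, 92 and 19) and on log2(FPKM + 0.1) (323, 255 and 68). Without the fold threshold 6385 genes passed, 3213 higher and 3172 lower. The share of calls that were higher was 78.9%, 76.1% to 88.8% over the settings with a fold threshold and 50.3% without. Leaving out each middle library in turn gave 490 to 510 calls (373 to 403 higher, 103 to 117 lower), 538 to 554 calls of the difference between regions and 10 genes at 50 CPM or more each time. The replicate number does not pair the libraries: deviations of same-numbered libraries correlated at 0.014, -0.026 and -0.023. A replicate block gave 489 calls (385 higher, 104 lower). No gene called in the main analysis was called the other way in these settings, though only 108 of 176 named genes were tested at 5 CPM and 169 on the middle libraries alone. DESeq2 lost 1 of 176, Gm20634, glmTreat 23, log2(FPKM + 1) 45 and log2(FPKM + 0.1) 13, among them Fst (glmTreat and log2(FPKM + 1)), Grxcr1, Lhx3, Gfi1, Skor1, Chrna3 and Bglap2. A pseudocount of 1 shrinks low genes by construction, so Onecut1 came to 0.97. Calls lost without 1 library were Gfi1, Lhx3, Cdh15, Egr3 (0.85 without control replicate 1, 0.99 without cKO replicate 2) and Derl3 (-0.95 and -0.98 without cKO replicate 1 and 3). Depth limits genes near the floor of 3 counts per library.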

Other observations

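Immediate early and stress genes gave 1 call of 14, Egr3, at 22, 35 and 35 counts in the control middle and 68, 79 and 75 in the cKO. Interferon response genes gave none of 14, with a median of -0.27. The genes with at least 1 CPM in 1 pool and under 0.5 CPM in each other pool numbered 18 for the cKO middle, among them Chrna6, Chrnb3, Hs3st2, Fam19a2, Tac1, Onecut1, Gm16551, Pcsk1 and Htr1d. They numbered 32 for the cKO base, with Gabra6 and Pcp2, 7 for the cKO apex and 1 for each control pool, Nkx6-2 in the control middle. RP23-372N19.2, which overlaps 3 annotated genes on the other strand, rose from 1.43, 1.73 and 1.70 CPM to 26.7, 27.5 and 26.2.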
